A study of Mus musculus with 172 samples.

Results

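Collagens, laminins, matrix metalloproteinases (Mmps), Adamts proteases and the tissue inhibitors of metalloproteinases (Timps) were followed in cerebral cortex and liver of mice kept awake for 6 h. The genes were taken by symbol, as every listed gene whose symbol begins with Col, a number and a, with Lama, Lamb or Lamc and a number, or with Timp, Mmp or Adamts and a number. This rule matched 92 of the 16308 genes listed in either tissue, 87 of 14896 in cortex and 75 of 14107 in liver. *Col4a3bp* matched by its spelling but encodes a ceramide transfer protein, and it is given apart. The 91 matrix genes that remain, 86 in cortex and 74 in liver with 69 in both, comprise 43 collagen chains, 11 laminin chains, 15 Mmps, 18 Adamts and 4 Timps.

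RNA came from young adult male mice of 33 BXD/RwwJ recombinant inbred lines, of their parental strains C57BL/6J and DBA/2J, and of the F1 hybrids of both cross directions. By their labels, BXD96, BXD97 and BXD103 are sublines of BXD48, BXD65 and BXD73, which are also among the 33. The 33 are therefore not all unrelated genotypes, and this was not modelled. SD mice were kept awake by gentle handling from light onset for 6 h, while Ctr mice of the same lines stayed undisturbed in another room. Both were killed under isoflurane at the end of that period, so that hour of day and handling at death were shared. Room and handling during the 6 h differed between the conditions along with sleep, and their parts cannot be told apart here. Each library holds the pooled RNA of the mice of a line, tissue and condition, so spread between mice of a line was not measured. The p-values of the SD test without a block refer to the spread between pools, of different genotypes but for the 2 pools of each parental strain. With the line as a block, and in the test between lines, they refer to the spread between lines of their SD minus Ctr changes. In the tissue test they refer to the spread of the differences between lines, and in the parental test to that between pools of a strain. There were 39 pools per tissue and condition (33 lines, 2 pools of each parental strain from the start and end of the collection, and 2 F1 hybrids), and each Ctr-SD pair is called a line here. In 3 of these (BXD79, BXD85 and BXD101) fewer mice were pooled. Another 16 libraries, of 4 BXD/TyJ lines, were kept apart.

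Collagens are triple-helical proteins that form fibrils in connective tissue, networks in basement membranes and, in several smaller types, links or transmembrane anchors. Laminins are trimers of an alpha, a beta and a gamma chain that build basement membranes together with type IV collagen, around vessels and under the meninges in brain and around ducts and larger vessels in liver. Mmps and Adamts are zinc proteases that cut matrix proteins, proteoglycans and procollagens, and Timps bind and inhibit them. In brain many of these genes are expressed by cells of vessels and meninges, with some made by neurons and glia, and in liver many fibrillar collagens come from stellate cells and portal fibroblasts.

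Values are log2 CPM, the log2 of a read count scaled to the size of its library. Cortex libraries held between 18995492 and 28998853 reads counted on genes and liver libraries between 4681101 and 8269401, and a gene without reads is listed near -4.51 in cortex and -2.77 in liver. In liver, 15 of the 74 matrix genes averaged under 10 reads, and in cortex none did. Of 5 hepatocyte markers, 4 were not listed in cortex, and 4 of 5 neuronal markers were not listed in liver. The Ctr cortex library of BXD56 (r = 0.983 with the median of its group) and that of BXD90 (r = 0.986) stood lowest among cortex libraries, and the SD liver library of BXD70 stood apart from all liver libraries (r = 0.958, the next 0.977). BXD56 held the highest Ctr value of 20 of the 86 cortex genes, and BXD70 the lowest liver change of 19 of the 74 liver genes. Counts are therefore given with and without these lines.

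Set against exon length (CPM per kb of exon, Ctr pools), the 2 most abundant transcripts in cortex were those of an inhibitor and a membrane-bound protease. *Timp2*, an inhibitor that also takes part in activation of Mmp2, reached 75.8 CPM per kb and *Mmp17*, a protease held to the membrane by a lipid anchor, 59.6, and *Timp3*, the inhibitor that binds to matrix, stood at 14.1. Among cortical collagens *Col6a1* (20.6 CPM per kb), *Col4a2* (15.0), *Col19a1* (13.3) and *Col4a1* (10.9) were highest. In liver the highest level was that of *Col18a1*, whose C-terminal fragment is endostatin, at 135.5 CPM per kb, followed by *Mmp19* (57.2), the membrane-type proteases *Mmp15* (35.0) and *Mmp14* (31.1), and *Col14a1* (29.1), which coats collagen fibrils. The fibrillar *Col3a1* stood at 17.4 CPM per kb in liver and 0.791 in cortex, and *Col18a1* at 0.873 in cortex. Tables of the tissues were normalized separately, so levels across tissues were not tested. No length was available for *Col26a1*.

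After SD the matrix genes of the cortex fell more often than they rose. Of 86 genes, 52 fell (60.5%), 14 rose (16.3%) and 20 did not pass the test, where 35.4% of all cortical genes fell, 33.0% rose and 68.4% passed in either direction (limma, p adjusted by Benjamini-Hochberg across the tissue's genes, threshold 0.05). The median log2 fold change of the 86 genes was -0.20, against -0.01 over all genes. By family, the count of genes that rose and fell was 5 and 27 of 43 collagens, 1 and 8 of 11 laminins, 4 and 6 of 11 Mmps, 1 and 10 of 17 Adamts, and 3 and 1 of 4 Timps. Most changes were modest: 12 of 86 genes (14.0%) passed and changed by 0.5 or more on the log2 scale, against 7.18% of all genes. Without BXD56 the counts were 15 higher and 51 lower, and without BXD90 13 higher and 52 lower. With the line as a block, 17 rose and 60 fell, where 36.6% of all genes rose, 39.6% fell and 76.3% were called in that fit. In bulk tissue, fewer cells of a type and less RNA per cell cannot be told apart.

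**Figure D1:**
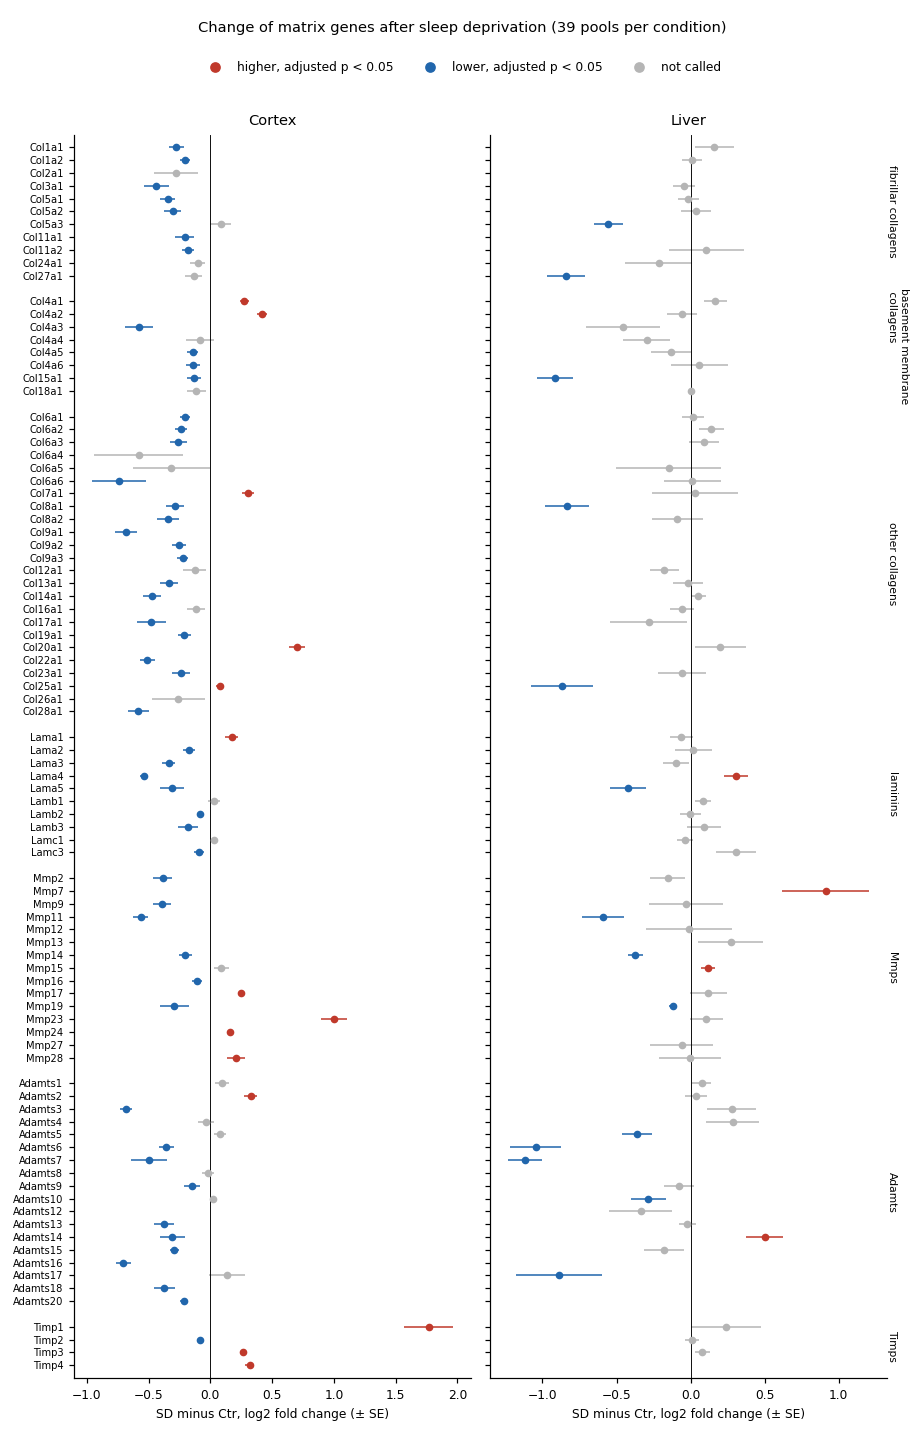
SD minus Ctr change (log2 fold change ± SE, 39 pools per condition) of matrix genes in cortex (left, 85 genes) and liver (right, 73 genes), grouped by family, with 1 gene that the counts in the text include not shown. Red points passed the test as higher, blue as lower and grey did not pass. In cortex 51 genes are blue and 14 red, with Timp1, Mmp23 and Col20a1 farthest to the right, and in liver 14 are blue and 4 red.

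The fall of the cortical collagens was seen within single lines. The median change over the 43 collagens was below 0 in 39 of 39 lines, from -0.37 in BXD44 to -0.03 in BXD89, while the median over all genes lay between -0.02 and 0.00 in every line. Fibrillar collagens had a median below 0 in 37 lines, laminins in 37 and Adamts in 36. The Timps showed the opposite sign, with a median above 0 in 36 of 39 lines, and the Mmps were mixed, with 23 lines below 0 and 16 above. These medians rest on the same values as the counts of calls and were not tested.

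**Figure D2:**
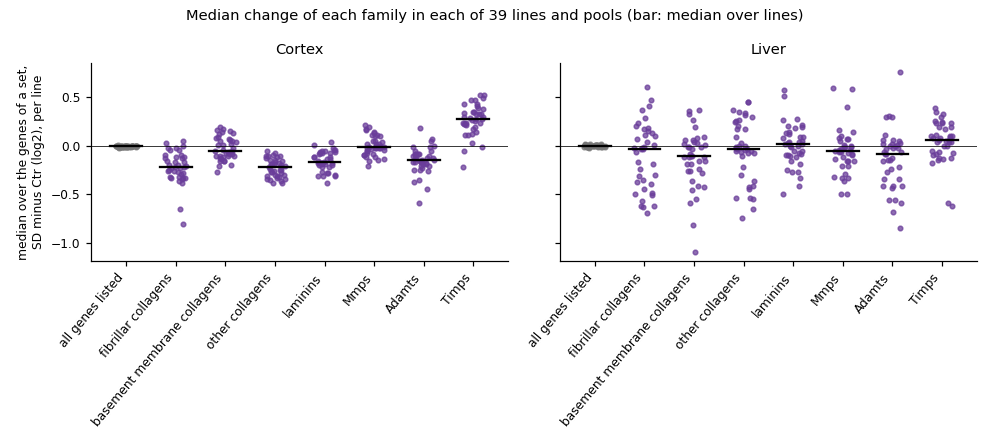
Median SD minus Ctr change (log2) over the genes of each family in each of the 39 lines and pools (points), with the median over lines as a bar, for cortex (left) and liver (right). In cortex all points of the other collagens lie below 0 and 36 of 39 points of the Timps above it, whereas in liver every family scatters around 0 and the points of all genes stay close to it.

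*Timp1*, the secreted inhibitor best known as an injury- and cytokine-responsive gene, had the largest rise of any matrix gene in cortex. Its log2 CPM ran from -4.51 (no reads) to 2.19 with a median of -1.78 in Ctr pools and from -0.93 to 1.48 with a median of -0.08 in SD pools. All but 2 Ctr pools lay below the median SD pool, the exceptions being BXD56 (2.19, from 107 reads) and BXD103 (1.52, from 71 reads), so the ranges overlapped. The change was 1.77 ± 0.20 (SE, log2 fold change, n = 39 per condition, limma adjusted p = 1.03e-12), upward in 36 of 39 lines, at a mean of 9.82 reads in Ctr and 22.7 in SD. *Timp1* lies within the gene *Syn1* on the other strand with no shared exonic base, and *Syn1* fell by 0.07 in cortex (adjusted p = 1.40e-05, limma).

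The other inhibitors changed less but at far higher counts. *Timp3* ran from 6.54 to 7.14 (median 6.85) in Ctr and from 6.96 to 7.31 (median 7.09) in SD pools. The ranges overlapped between 6.96 and 7.14, and it rose in 39 of 39 lines by 0.27 ± 0.02 (adjusted p = 4.75e-18, limma). *Timp4*, the inhibitor with the most restricted tissue range, rose by 0.32 ± 0.04 in 38 of 39 lines (Ctr median 4.12, SD median 4.49, adjusted p = 1.07e-11 by limma). *Timp2* fell by 0.08 ± 0.03 in 29 of 39 lines (adjusted p = 0.00521, limma). *Timp3* shares 1733 exonic bases (21.3% of its own) with *Syn3* on the opposite strand, whose change of -0.07 did not pass (adjusted p = 0.0781, limma), and reads were counted by strand by the study's methods.

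Among the Mmps in cortex, 4 rose, 6 fell and *Mmp15* did not pass (0.09 ± 0.06). *Mmp23*, a small membrane-anchored protease that lacks the hemopexin domain of most Mmps, had a range of -0.87 to 1.32 (median 0.13) in Ctr and 0.37 to 2.01 (median 1.05) in SD pools. The groups overlapped between pools, but SD was above Ctr in 39 of 39 lines, by 1.00 ± 0.11 (adjusted p = 9.73e-14, limma) at a mean of 37.8 reads. The other genes that rose were membrane-bound *Mmp17* (0.25 ± 0.02, 37 of 39 lines) and *Mmp24* (0.16 ± 0.02, 38 of 39 lines), the latter known as a brain-enriched protease, and secreted *Mmp28* (0.21 ± 0.07). The gelatinases fell, *Mmp9* by 0.39 (SE 0.07, 33 of 39 lines) and *Mmp2* by 0.39 (SE 0.08, 34 of 39 lines). *Mmp14*, the membrane protease that activates Mmp2, fell by 0.20 (SE 0.05), *Mmp16* by 0.11 (SE 0.04), *Mmp19* by 0.29 (SE 0.12), and *Mmp11*, a stromal protease, by 0.56 (SE 0.06) in 38 of 39 lines. With the line as a block *Mmp15* passed as higher (adjusted p = 9.5e-05, limma).

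Of 17 cortical Adamts genes 10 fell and only *Adamts2* rose. *Adamts3*, which removes the N-propeptide of procollagens, lay between 4.78 and 5.71 (median 5.35) in Ctr and between 4.33 and 5.03 (median 4.61) in SD pools. The ranges overlapped between 4.78 and 5.03, and it fell in 39 of 39 lines by 0.68 (SE 0.05, adjusted p = 1.50e-22, limma). Of its relatives with the same substrate, *Adamts2* rose by 0.33 ± 0.05 in 34 of 39 lines and *Adamts14* fell by 0.31 (SE 0.10) from a mean of 13.3 to 10.7 reads. *Adamts16* fell by 0.70 (SE 0.06) in 38 of 39 lines, *Adamts7* by 0.50 (SE 0.15, mean 11.7 reads), *Adamts13*, which cuts von Willebrand factor, by 0.38 (SE 0.08), *Adamts18* by 0.37 (SE 0.08), *Adamts6* by 0.36 (SE 0.06), *Adamts15* by 0.29 (SE 0.04), *Adamts20* by 0.21 (SE 0.03) and *Adamts9* by 0.15 (SE 0.07), the last a call lost in all 43 pools, in the 33 BXD/RwwJ lines alone and when any of 8 single lines was left out. The proteoglycan-cutting *Adamts1* (0.10 ± 0.05), *Adamts4* (-0.03 ± 0.06), *Adamts5* (0.08 ± 0.05) and *Adamts8* (-0.02 ± 0.05) did not pass, nor did *Adamts10* and *Adamts17*. *Adamts1* passed as higher once BXD56, which held its highest Ctr value of 4.77, was left out (0.12), and *Adamts5* (adjusted p = 0.046) and *Adamts17* (adjusted p = 0.00059) passed as higher in limma with the line as a block.

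The type IV collagens of the cortex split by chain. *Col4a1* and *Col4a2*, whose chains together form the network of nearly all basement membranes, rose, while *Col4a3*, *Col4a5* and *Col4a6*, chains of more specialized membranes, fell. *Col4a2* ran from 6.18 to 6.93 (median 6.60) in Ctr and from 6.71 to 7.45 (median 7.01) in SD pools. It was higher in 39 of 39 lines, by 0.41 ± 0.04 (adjusted p = 2.49e-15, limma), with overlap between pools of different lines. *Col4a1* rose in 37 of 39 lines by 0.27 ± 0.04 (Ctr median 6.22, SD median 6.47, adjusted p = 1.68e-10 by limma). *Col4a3* fell by 0.58 (SE 0.12, mean 13.5 reads), *Col4a5* by 0.14 (SE 0.04) and *Col4a6* by 0.14 (SE 0.06), the last not called without BXD44 or without BXD56, and *Col4a4* did not pass (-0.08 ± 0.12). *Col15a1* fell by 0.14 (SE 0.06), and *Col18a1* did not pass (-0.12 ± 0.08).

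These 6 chains are encoded in 3 head-to-head pairs, which gives a further comparison by position (mm9). *Col4a1* (chr8:11198423-11312826, minus strand) and *Col4a2* (chr8:11312805-11449287, plus strand) overlap at their starts by 22 exonic bases and both rose. *Col4a4* and *Col4a3* start 72 bases apart on chromosome 1, and of these *Col4a3* fell while *Col4a4* did not pass. *Col4a6* and *Col4a5* start 1309 bases apart on chromosome X and both fell by 0.14.

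No fibrillar collagen rose in cortex, 7 of 11 fell and 4 did not pass. *Col3a1*, the chain of type III collagen in vessel walls and meninges, ran from 1.74 to 4.18 (median 2.69) in Ctr and from 1.44 to 2.94 (median 2.20) in SD pools. The groups overlapped widely, but SD was lower in 35 of 39 lines, by 0.44 (SE 0.10, adjusted p = 0.000134, limma). The chains of type I collagen fell less, *Col1a1* by 0.28 (SE 0.06, 33 of 39 lines) and *Col1a2* by 0.20 (SE 0.04, 34 of 39 lines). Type V chains, which set fibril diameter, fell as well (*Col5a1* by 0.35, SE 0.06, in 38 of 39 lines and *Col5a2* by 0.31, SE 0.07), while *Col5a3* did not pass (0.08 ± 0.09). *Col11a1* fell by 0.21 (SE 0.08) and *Col11a2* by 0.18 (SE 0.05), and *Col2a1*, *Col24a1* and *Col27a1* had changes of -0.28, -0.10 and -0.14 that did not pass but passed as lower with the line as a block (limma adjusted p of 0.014, 0.010 and 0.018), *Col27a1* also without BXD48.

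The remaining collagens held both directions. *Col20a1*, a fibril-associated collagen, ran from 2.14 to 3.63 (median 2.79) in Ctr and from 2.97 to 3.93 (median 3.52) in SD pools and rose in 39 of 39 lines by 0.70 ± 0.06 (adjusted p = 1.74e-16, limma). *Col7a1*, the collagen of anchoring fibrils in skin, rose by 0.30 ± 0.05 in 34 of 39 lines. *Col25a1*, a transmembrane collagen of neurons, rose by 0.08 ± 0.03, a call lost without BXD90 (0.06). The 16 genes that fell included *Col9a1* by 0.68 (SE 0.09) with its partners *Col9a2* by 0.25 (SE 0.06) and *Col9a3* by 0.22 (SE 0.05), the fibril-associated *Col14a1* by 0.47 (SE 0.07), *Col22a1* by 0.51 (SE 0.06) and *Col19a1* by 0.21 (SE 0.05), *Col28a1* by 0.58 (SE 0.08), and the hemidesmosomal *Col17a1* by 0.48 (SE 0.12). The main chains of type VI collagen, a microfibril around cells, fell together, *Col6a1* by 0.20 (SE 0.04), *Col6a2* by 0.24 (SE 0.05) and *Col6a3* by 0.26 (SE 0.07). *Col8a1*, *Col8a2*, *Col13a1* and *Col23a1* fell by between 0.24 and 0.34. *Col6a6* fell by 0.74 (SE 0.22) in 37 of 39 lines. *Col6a4*, *Col6a5*, *Col12a1*, *Col16a1* and *Col26a1* did not pass (changes of -0.58, -0.32, -0.13, -0.12 and -0.26) but passed as lower with the line as a block (limma adjusted p between 6.6e-10 for *Col26a1* and 0.00032 for *Col6a5*). *Col4a3bp* fell by 0.05 (SE 0.02, adjusted p = 0.0390, limma).

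Of 11 laminin chains in cortex 8 fell, *Lama1* rose, and *Lamb1* and *Lamc1* did not pass. *Lama4*, the alpha chain of vascular basement membranes, ran from 3.84 to 4.40 (median 4.20) in Ctr and from 3.33 to 3.93 (median 3.61) in SD pools. Overlap was confined to the lowest Ctr and highest SD pools, and it fell in 39 of 39 lines by 0.53 (SE 0.03, adjusted p = 3.19e-26, limma), the lowest p among the matrix genes of the cortex. *Lama3* and *Lamb3*, chains of epithelial laminins, fell by 0.34 (SE 0.05) and 0.18 (SE 0.08). *Lama5* fell by 0.31 (SE 0.10), *Lama2*, mutated in congenital muscular dystrophy, by 0.17 (SE 0.05), *Lamb2* by 0.08 (SE 0.03) and *Lamc3* by 0.09 (SE 0.04), while *Lama1* rose by 0.17 ± 0.05 in 29 of 39 lines. The broadly used *Lamb1* (0.03 ± 0.05) and *Lamc1* (0.03 ± 0.03) stayed within their error. Calls of *Lamb3* and *Lamc3* were each lost when any of 15 single lines was left out.

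**Figure D3:**
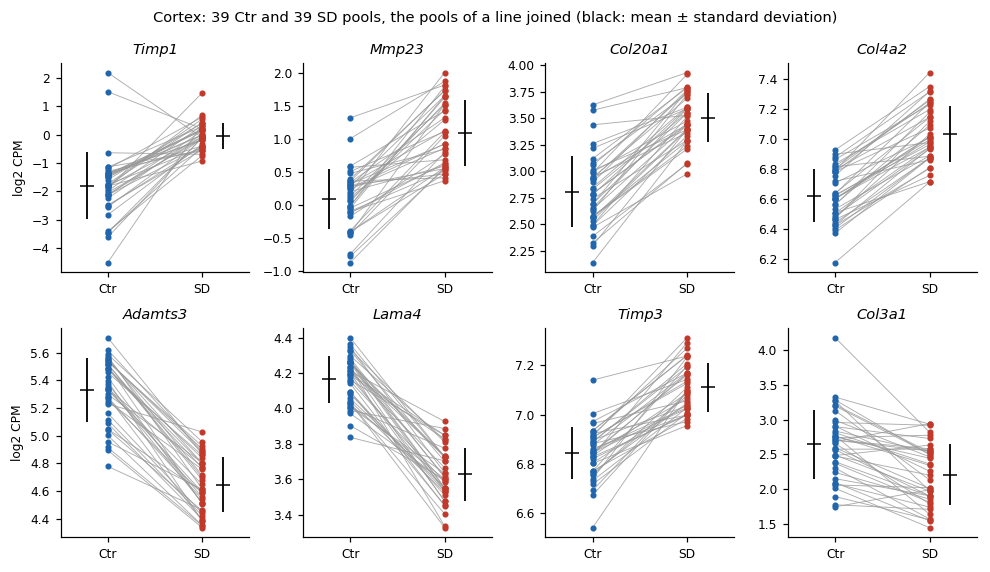
Log2 CPM of 8 matrix genes in the 39 Ctr (blue) and 39 SD (red) cortex pools, with the pools of a line joined and the mean ± standard deviation in black. Mmp23, Col20a1, Col4a2 and Timp3 rise in all 39 lines and Adamts3 and Lama4 fall in all 39, while Timp1 rises in 36 lines from Ctr values that include 2 high pools, BXD56 and BXD103.

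Markers of other cells moved beside these genes, where 33.0% of all cortical genes rose and 35.4% fell. Of 8 genes of leptomeningeal fibroblasts, the cells that cover the brain and make fibrillar collagen, 7 fell and none rose, and their summed level ran from 111 to 208 CPM (median 153) in Ctr and from 95.2 to 183 (median 127) in SD pools, lower in 36 of 39 lines. Of 8 brain endothelial genes 3 rose and 4 fell (sum 261 to 417 CPM in Ctr, 251 to 343 in SD), and of 8 mural cell genes 1 rose and 2 fell (141 to 221 and 148 to 198 CPM). Of 5 astrocyte genes 2 rose (4154 to 6746 and 4757 to 7099 CPM), of 5 microglial genes 1 rose and 2 fell (173 to 268 and 166 to 258 CPM), of 5 neuronal genes 2 rose and 1 fell (5322 to 6184 and 5221 to 6049 CPM), and the 3 listed of 6 choroid plexus genes had changes of -0.20 to 0.01 that did not pass (3.84 to 20.0 and 4.23 to 30.7 CPM). No listed marker averaged under 1 read in cortex. The part of meningeal tissue in the fall of the collagens was not tested.

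Upstream sequence was printed for genes described above that moved the same way in 39 of 39 cortex lines, and for *Timp1* as the gene with the largest rise, where RefSeq gave a promoter window. Windows of 250 bases before and 50 after the start were available for 63 of the 91 genes (RefSeq, GRCm38.p6), and *Lama4* was not among them, while the window of *Col4a2* lies within *Col4a1*. The 250 bases before the start are given 5′ to 3′ on the gene's strand, with matches to the searched letters on either strand in capitals. The windows are *Timp1* (chrX:20869916-20870165, plus), *Mmp23* (chr4:155653385-155653634, minus, 1 of 2 windows), *Timp3* (chr10:86300162-86300411, plus), *Col20a1* (chr2:180986285-180986534, plus) and *Adamts3* (chr5:89883335-89883584, minus).
Timp1: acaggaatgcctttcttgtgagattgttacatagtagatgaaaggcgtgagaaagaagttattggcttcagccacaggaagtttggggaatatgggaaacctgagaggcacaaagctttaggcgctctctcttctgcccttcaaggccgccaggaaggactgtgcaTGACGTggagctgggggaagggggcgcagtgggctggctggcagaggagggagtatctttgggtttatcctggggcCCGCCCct
Mmp23: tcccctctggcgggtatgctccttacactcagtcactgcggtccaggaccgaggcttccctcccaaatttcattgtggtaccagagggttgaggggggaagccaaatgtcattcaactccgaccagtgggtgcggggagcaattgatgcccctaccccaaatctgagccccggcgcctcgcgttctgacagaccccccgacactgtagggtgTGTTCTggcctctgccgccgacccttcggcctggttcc
Timp3: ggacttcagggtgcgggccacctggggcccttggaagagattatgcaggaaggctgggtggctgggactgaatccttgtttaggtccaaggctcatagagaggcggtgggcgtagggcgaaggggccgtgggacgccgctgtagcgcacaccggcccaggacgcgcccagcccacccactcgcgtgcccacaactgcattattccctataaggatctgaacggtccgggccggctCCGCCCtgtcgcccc
Col20a1: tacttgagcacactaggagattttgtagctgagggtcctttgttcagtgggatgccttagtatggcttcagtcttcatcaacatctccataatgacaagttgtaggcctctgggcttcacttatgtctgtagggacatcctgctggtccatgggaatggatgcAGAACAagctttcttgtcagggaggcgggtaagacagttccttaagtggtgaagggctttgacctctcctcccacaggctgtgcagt
Adamts3: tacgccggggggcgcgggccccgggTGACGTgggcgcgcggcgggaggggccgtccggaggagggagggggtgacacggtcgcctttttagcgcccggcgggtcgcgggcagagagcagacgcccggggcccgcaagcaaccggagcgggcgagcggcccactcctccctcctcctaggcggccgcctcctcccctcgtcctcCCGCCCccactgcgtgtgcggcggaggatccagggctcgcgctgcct

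In these sequences the capitals mark a CRE half-site 84 bases and a GC box 8 bases before the start of *Timp1*, a glucocorticoid half-site 38 bases before that of *Mmp23*, a GC box 15 bases before that of *Timp3*, a glucocorticoid half-site 87 bases before that of *Col20a1*, and a CRE half-site 225 bases and a GC box 47 bases before that of *Adamts3*, each distance counted to the first base of the match. The letters searched, on both strands of each window, were TGACGT for the CRE half-site, GGGCGG for the GC box, AGAACA for the glucocorticoid half-site, CACGTG for the E-box and TGANTCA for AP-1. A GC box was held by 42 of 63 matrix genes (66.7%) against 38.2% of 27025 genes. In cortex it was held by 10 of 12 that rose, 23 of 34 that fell and 9 of 12 that did not pass. The 27025 are all genes with a window, listed in these tissues or not, while the matrix genes are all listed. The CRE half-site was held by 7.94% of matrix genes against 8.37% of all, the glucocorticoid half-site by 12.7% against 21.3%, the E-box by 3.17% against 8.09%, and AP-1 by 6.35% against 8.97%. A match is a description of the letters only.

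In liver fewer matrix genes passed the test. Of 74 genes, 14 fell, 4 rose and 56 did not pass, which is 24.3% called against 44.2% of all liver genes (22.6% lower and 21.5% higher, same test). The median log2 fold change was -0.02. Its size without sign had a median of 0.120, against 0.117 over all genes, and 10 of 74 genes (13.5%) passed and changed by 0.5 or more, against 7.29%. The matrix genes held a median of 64.3 reads against 272 over all liver genes. The part of read counts in the lower share called was not tested. No collagen rose, 5 of 33 fell, and the median over the collagens was below 0 in 22 of 39 lines. With the line as a block 6 rose and 18 fell, 24 in all, where 26.0% of all genes rose, 27.9% fell and 53.9% were called, and without BXD70 6 rose and 13 fell.

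Proteases led the falls in liver. *Adamts7*, which cuts cartilage oligomeric matrix protein, ran from 4.51 to 6.45 (median 5.68) in Ctr and from 3.08 to 5.43 (median 4.40) in SD pools. The upper SD pools overlapped the lower Ctr pools, and it fell in 39 of 39 lines by 1.12 (SE 0.11, adjusted p = 6.95e-14, limma), the only liver member to move the same way in all of them. *Adamts6* fell by 1.05 (SE 0.17) in 34 of 39 lines at a mean of 19.1 reads, *Adamts17* by 0.89 (SE 0.29) at 5.59 reads, *Adamts5*, the main aggrecan-cutting protease of cartilage, by 0.36 (SE 0.10) and *Adamts10* by 0.28 (SE 0.12), the last a call lost when any of 21 single lines, BXD70 among them, was left out. *Mmp14* ran from 5.88 to 6.78 (median 6.35) in Ctr and from 5.31 to 6.47 (median 5.97) in SD pools and fell in 35 of 39 lines by 0.37 (SE 0.05, adjusted p = 5.19e-09, limma). *Mmp11* fell by 0.59 (SE 0.14) and *Mmp19* by 0.12 (SE 0.03, 33 of 39 lines).

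Proteases were also 3 of the 4 genes that rose in liver. *Adamts14* rose by 0.50 ± 0.12 in 30 of 39 lines (Ctr 0.02 to 2.30, SD -0.12 to 2.76, adjusted p = 0.000500 by limma). *Mmp15* rose by 0.12 ± 0.05 in 29 lines, a call lost without BXD64 (0.11). *Mmp7*, an epithelial protease known as matrilysin, rose by 0.91 ± 0.29 in 28 of 39 lines (adjusted p = 0.00767, limma) at a mean of 6.10 reads, with no reads in 13 Ctr and 2 SD pools, so its fold depends on the value given to 0 reads, and its call was lost in the 33 BXD/RwwJ lines alone. *Adamts1*, *Adamts2*, *Adamts3*, *Adamts4*, *Adamts9*, *Adamts12*, *Adamts13* and *Adamts15* did not pass, with changes between -0.34 and 0.29, nor did *Mmp2* (-0.16 ± 0.12), which passed as lower with the line as a block (adjusted p = 0.030, limma), *Mmp9* (-0.03 ± 0.25) or *Mmp12*, *Mmp13*, *Mmp17*, *Mmp23*, *Mmp27* and *Mmp28* (-0.06 to 0.27).

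The 5 liver collagens that fell came from different classes. *Col15a1*, a basement membrane collagen of vessels and muscle, ran from 4.55 to 6.78 (median 5.72) in Ctr and from 3.45 to 6.06 (median 4.98) in SD pools, and was lower in 37 of 39 lines, by 0.91 (SE 0.12, adjusted p = 7.02e-10, limma). *Col27a1* fell by 0.84 (SE 0.13) in 38 lines and *Col5a3* by 0.55 (SE 0.10) in 36 lines, both fibrillar. *Col25a1* fell by 0.87 (SE 0.21) and *Col8a1* by 0.83 (SE 0.15). The abundant fibrillar chains *Col1a1* (0.16 ± 0.13), *Col1a2* (0.01 ± 0.07) and *Col3a1* (-0.04 ± 0.07) did not pass, and their ranges in Ctr and SD pools nearly coincided, for *Col3a1* 6.42 to 7.95 and 6.47 to 8.01. *Col18a1*, the most abundant, changed by 0.00 ± 0.03. *Col4a1* (0.17 ± 0.08, 30 of 39 lines) passed as higher with the line as a block (adjusted p = 0.00067, limma), in all 43 pools (adjusted p = 0.049, limma) and without BXD70, and *Col4a2* did not pass in either (-0.06 ± 0.10). *Col4a3* (-0.46 ± 0.25) and *Col12a1* (-0.18 ± 0.10) passed as lower with the line as a block (adjusted p of 0.023 and 0.035, limma). The other 20 collagens that did not pass had changes between -0.30 and 0.20.

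Among liver laminins *Lama4* rose and *Lama5* fell. *Lama4* ran from 3.30 to 4.79 (median 4.03) in Ctr and from 3.28 to 5.06 (median 4.32) in SD pools and was higher in 32 of 39 lines, by 0.31 ± 0.08 (adjusted p = 0.00153, limma). *Lama5* fell by 0.42 (SE 0.12) in 32 lines. The other 9 chains did not pass, among them *Lama2* (0.02 ± 0.13), *Lamb1* (0.08 ± 0.06) and *Lamc1* (-0.04 ± 0.05). With the line as a block *Lamc3* passed as higher (0.31 ± 0.13, adjusted p = 0.00073 by limma), as it did when any of 9 single lines was left out, BXD70 among them. The 3 Timps listed in liver did not pass (*Timp1* 0.24 ± 0.24 at 4.44 reads, *Timp2* 0.01 ± 0.05, *Timp3* 0.08 ± 0.05). *Col4a3bp* rose by 0.13 ± 0.04 (adjusted p = 0.00166, limma).

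In liver the sinusoidal endothelial markers moved, with 4 of 6 higher and 1 lower (sum 270 to 656 CPM in Ctr, 318 to 764 in SD), whereas of 8 stellate cell genes 1 rose and 2 fell (408 to 701 and 409 to 679 CPM), of 8 genes of portal fibroblasts and mesothelium 1 rose (34.4 to 89.4 and 38.8 to 90.0 CPM), of 5 bile duct genes 1 fell (84.2 to 181 and 74.8 to 184 CPM), of 5 Kupffer cell genes 1 fell (219 to 494 and 223 to 532 CPM) and the 5 hepatocyte genes had changes of 0.01 to 0.03 that did not pass (2091 to 3549 and 2163 to 3227 CPM). Over all liver genes, 21.5% rose and 22.6% fell. All 4 B cell genes fell, from 6.45 to 26.4 CPM in Ctr to 2.30 to 12.7 CPM in SD pools, lower in 39 of 39 lines. The part of these cells in the changes of the matrix genes was not tested.

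The question whether cortex and liver responded alike was tested on the difference of the liver and the cortex change within each line. Of the 69 genes listed in both, 38 differed between tissues (55.1%), 19 with the liver above and 19 with the cortex above, against 57.6% of all genes. In both tissues 8 fell (11.6%), none rose in both, and 3 were called in opposite directions (4.35%), where the shares over all genes are 11.9%, 12.5% and 9.47%. These 3 were *Lama4*, which fell in cortex and rose in liver (difference 0.84 ± 0.07, liver above in 38 of 39 lines, limma adjusted p = 7.89e-14), *Adamts14* with the same signs (0.81 ± 0.14, 35 of 39 lines), and *Col25a1*, which rose in cortex and fell in liver (-0.95 ± 0.16, cortex above in 32 of 39 lines). The cortex calls of *Adamts14* and *Col25a1* were lost under quantile normalization, and that of *Col25a1* also without BXD90.

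The largest differences beyond these came from genes that moved in 1 tissue or further in it. *Timp1* (-1.53 ± 0.28), *Mmp23* (-0.89 ± 0.12), *Col20a1* (-0.50 ± 0.13) and *Col4a2* (-0.47 ± 0.05) rose more in cortex. *Adamts17* (-1.02 ± 0.19) fell in liver alone, and *Col15a1* (-0.78 ± 0.09) fell in both and further in liver. *Adamts3* (0.96 ± 0.16), *Col6a6* (0.75 ± 0.19) and *Col14a1* (0.52 ± 0.06) fell in cortex, with liver values of 0.28, 0.01 and 0.05 that did not pass. *Adamts7* and *Adamts6* fell in both tissues and further in liver (-0.62 ± 0.12 and -0.69 ± 0.17). RNA was extracted by different kits in the 2 tissues, and the liver was read less deeply. *Timp1*, *Adamts17* and *Adamts3* averaged under 10 reads in liver, where a gene without reads is listed near -2.77, against -4.51 in cortex. The size of their tissue difference depends on the values given to 0 reads.

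**Figure D4:**
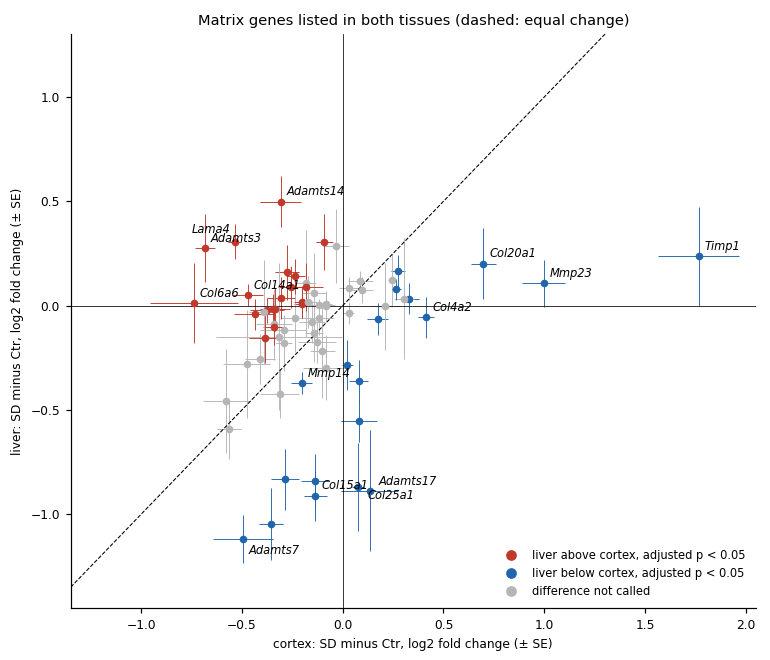
SD minus Ctr change (log2 fold change ± SE) in cortex (x axis) and liver (y axis) of the 69 matrix genes listed in both tissues, with the line of equal change dashed. Red genes have a higher change in liver, blue genes a higher change in cortex and grey genes did not differ by the test. Timp1, Mmp23 and Col20a1 lie far to the right near 0 in liver, Lama4 and Adamts14 in the upper left, and Adamts7 and Col15a1 at the bottom.

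Genes that process collagen and receptors that bind matrix were set beside the members. Of 25 listed genes for collagen processing and crosslinking 9 rose (36.0%) and 8 fell (32.0%) in cortex, near the shares of all genes there (33.0% and 35.4%), and of 24 in liver 8 rose (33.3%) and 2 fell (8.33%), where 21.5% and 22.6% of all genes did. The prolyl 4-hydroxylase subunit *P4ha1* rose in 39 of 39 lines of both tissues, by 0.98 ± 0.03 in cortex and 1.02 ± 0.05 in liver, as did the collagen chaperone *Serpinh1* (0.78 ± 0.06 and 1.04 ± 0.05) and *P4ha2* (0.62 ± 0.03 and 1.14 ± 0.10). *P4ha3* rose in cortex (0.56 ± 0.13) and the prolyl 3-hydroxylase *Leprel1* in liver (0.58 ± 0.13).

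Of 18 listed basement membrane partners and matrix receptors 7 rose (38.9%) and 5 fell (27.8%) in cortex, and 2 rose (11.1%) and 5 fell (27.8%) in liver. Over all genes 33.0% rose and 35.4% fell in cortex, and 21.5% and 22.6% in liver. The collagen receptor subunit *Itga10* rose in cortex in 39 of 39 lines (1.25 ± 0.05) and in liver (0.40 ± 0.13), and *Itga11*, of the same class, in cortex (0.58 ± 0.10). The laminin receptor subunit *Itga3* fell by 0.33 (SE 0.03) in cortex, and *Itga6* and *Itga7* fell by 0.53 (SE 0.11) and 0.52 (SE 0.07) in liver. *Nid2*, a nidogen that links laminin to type IV collagen, fell in both, by 0.47 (SE 0.05) and 0.31 (SE 0.06).

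Of 13 listed lecticans and partners, the proteoglycans and hyaluronan-binding proteins of brain matrix, 5 rose (38.5%) and 3 fell (23.1%) in cortex, and the 4 listed in liver had changes of -0.25 to 0.23 that did not pass. *Has3*, a hyaluronan synthase, rose by 0.55 ± 0.06, the link protein *Hapln2* by 0.44 ± 0.05 and aggrecan (*Acan*) by 0.41 ± 0.06, and tenascin C (*Tnc*) fell by 0.55 (SE 0.09). Of the other protease system genes 8 rose (42.1%) and 7 fell (36.8%) of 19 in cortex, and 4 rose (20.0%) and 3 fell (15.0%) of 20 in liver. For both lists, the shares over all genes were 33.0% and 35.4% in cortex and 21.5% and 22.6% in liver. *Plaur*, the urokinase receptor, rose in cortex (0.72 ± 0.09) together with the broad inhibitor *A2m* (0.63 ± 0.15). *Adamtsl2* fell by 0.48 (SE 0.04) in cortex and rose by 0.73 ± 0.14 in liver, and *Adamtsl1* and *Papln* fell by 0.47 (SE 0.15) and 0.35 (SE 0.12) in liver.

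Lines differed in their matrix genes as well as conditions did. In the 33 BXD/RwwJ lines, the level of 60 of 86 genes in cortex and 51 of 74 in liver differed between lines (limma F test with condition in the model), against 50.4% and 59.0% of all genes. Sublines count as separate lines here and in the comparisons of lines below. The standard deviation of line means had a median of 0.24 in cortex and 0.45 in liver over the matrix genes, against 0.11 and 0.19 over all genes. The matrix genes also held fewer reads, a median of 211 against 525.5 in cortex and 64.3 against 272 in liver. The part of read counts in this spread was not tested. The F statistic was highest in cortex for *Col26a1* (92.1), *Col6a5* (34.4), *Col6a4* (33.5), *Adamts17* (31.9), *Lama5* (26.7) and *Col12a1* (22.6), and in liver for *Col6a5* (11.4), *Col4a2* (9.98), *Mmp2* (7.93), *Mmp15* (7.61), *Lamb3* (7.29) and *Lama5* (6.85).

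*Col26a1* fell into separate groups of lines in cortex. Line means of the 33 lines ran from 1.24 to 4.02 log2 CPM with none between 2.04 and 3.27, 12 below and 21 above. Each subline lay on the side of its related line, BXD48 with BXD96 and BXD65 with BXD97 below, and BXD73 with BXD103 above. The parental pools sat on either side, C57BL/6J from 3.21 to 3.63 and DBA/2J from 1.67 to 2.12. In *Adamts17* the gap lay between 3.39 and 4.20 with 18 lines below and 15 above, and here C57BL/6J was low (2.92 to 3.21) and DBA/2J high (4.39 to 4.62). Its liver values split the lines at the midpoint of the parental means in the same way in 32 of 33 lines.

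The additional chains of type VI collagen, *Col6a6*, *Col6a5* and *Col6a4*, lie next to each other on the minus strand of chromosome 9 (mm9 chr9:105591747-105999114) and differed between the parents in different directions. The log2 difference of DBA/2J minus C57BL/6J was -3.38 ± 0.19 for *Col6a4* (C57BL/6J 2.23 to 2.82, DBA/2J -1.18 to -0.54), 2.996 ± 0.231 for *Col6a5* (C57BL/6J -1.17 to 0.00, DBA/2J 2.04 to 2.47) and 2.13 ± 0.21 for *Col6a6* (-1.68 to -0.49 and 0.91 to 1.53). The 4 pools of each strain did not overlap for any of these. Across the 33 lines, 22 were above and 11 below the parental midpoint for both *Col6a5* and *Col6a6*, the same lines for both. For *Col6a4* 13 lines were above, and 27 of the 33 lay on the opposite side from their *Col6a5* level (9 with *Col6a4* alone above, 18 with *Col6a5* alone), with 4 above for both and 2 for neither. The 2 for neither were BXD43 (*Col6a4* 0.63) and BXD61 (0.51), under the midpoint of 0.83. Both lie above the widest gap of *Col6a4*, from -0.63 to 0.51, which has 18 lines below and 15 above. *Col6a4* was not listed in liver, and *Col6a5* in liver fell on the same side as in cortex in 32 of 33 lines.

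**Figure D5:**
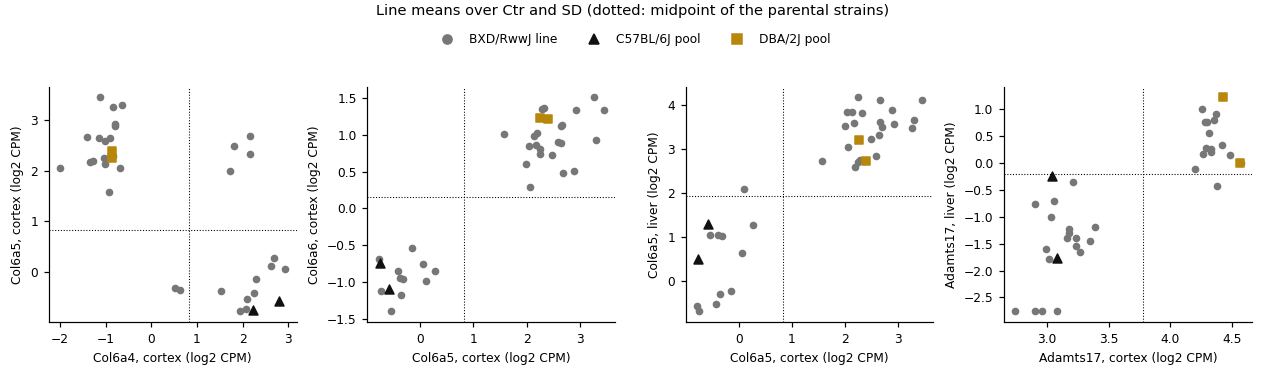
Line means over Ctr and SD pools (log2 CPM) of 33 BXD/RwwJ lines (grey circles), C57BL/6J pools (black triangles) and DBA/2J pools (yellow squares), with dotted lines at the midpoint of the parental means. From left, Col6a4 against Col6a5 in cortex, Col6a5 against Col6a6 in cortex, and Col6a5 and Adamts17 in cortex (x) against liver (y). Lines form separate clouds, and 22 lines are high and 11 low for both Col6a5 and Col6a6.

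Between the parental strains 34 of 86 genes differed in cortex, 18 higher and 16 lower in DBA/2J, and 21 had pools that did not overlap, against 25.5% of all genes called and 17.3% without overlap. In liver 14 of 74 differed, 6 higher and 8 lower, 13 without overlap, against 17.9% and 16.5%. Besides the type VI chains, the log2 difference of DBA/2J minus C57BL/6J in cortex was -1.56 ± 0.09 for *Col26a1*, 1.44 ± 0.08 for *Adamts17* and -1.27 ± 0.28 for *Col2a1*. In liver it was 2.06 ± 0.40 for *Col6a5*, 1.04 ± 0.12 for *Lama3*, -2.04 ± 0.19 for *Lamc3*, -1.26 ± 0.21 for *Lama2* and -0.95 ± 0.17 for *Col4a5*. *Adamts12* was called lower in DBA/2J liver (-2.21 ± 0.65) at a mean of 5.22 reads, with no reads in 3 of the 4 DBA/2J pools.

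Line means of cortex and liver were set side by side for the genes listed in both. Of 69 genes in both tissues, the correlation of line means between tissues (33 lines, a description) exceeded 0.5 for 6, *Col6a5*, *Adamts17*, *Lama5*, *Mmp2*, *Adamts7* and *Col3a1*, and lay below -0.5 for 3, *Mmp15* (-0.577), *Lamb3* (-0.572) and *Adamts4* (-0.501), with a median of 0.08. Points of *Col6a5* and *Adamts17* form clusters, so the counts of lines by side given above describe them better than a coefficient. The 69 include genes without a called line difference and liver genes of few reads. The coefficient was not computed over all genes, so a low median says nothing particular about matrix genes.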

How the data were processed

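RNA-seq of 172 libraries was read, and 156 were compared (39 pools per tissue and condition), grouped by the line, tissue and condition in their labels. Equal amounts of RNA of the mice of a group had been pooled before a strand-marking mRNA library was made. The values deposited by the authors are log2 CPM. By the study's methods, the authors aligned reads to mm9 by STAR, counted them by strand per RefSeq gene with htseq-count, dropped genes of low count and scaled counts by the TMM method of edgeR, after reads had passed FastQC. Versions of STAR, HTSeq and edgeR were not given in the sources used here.

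Reads were recovered from the log2 values, whole within 0.02 of a read in 100% of cases, and gave the depth and the input of voom. SD and Ctr were compared with limma 3.58.1 in R 4.3.3 (lmFit, eBayes with a variance trend, no block) over all listed genes of a tissue, called at a Benjamini-Hochberg adjusted p under 0.05. The line difference was tested by the F statistic of a model with condition, and the tissue difference on the change in liver minus that in cortex per line. The fit was tested on simulated data. The Ctr and SD pools of a line are different mice of 1 genotype, so the line pairs them: their deviations from the condition means correlated in all 39 lines, the lowest coefficient being 0.299 in cortex and 0.169 in liver and the median 0.614 and 0.475, against medians of -0.02 for different lines in both tissues. The block is nevertheless an alternative because the study's methods name none.

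Exon lengths and mm9 positions came from GENCODE vM1 and promoter windows from RefSeq. Named are, in each tissue, up to 12 genes called in each direction with the largest change among those that moved alike in at least 30 of 39 lines, genes called in opposite directions, 6 each by line F and parental difference, the 3 highest per length in each family, and a preset group of well-known members, and further members are given where they complete a family. Some genes that enter the counts are not reported here by name. Members, families, lists and tests were chosen with earlier results of these data known. Alternatives were the block, voom on recovered reads with and without it, no variance trend, median-centred libraries, quantile normalization, a minimum mean log2 CPM of 0, all 43 pools, the 33 BXD/RwwJ lines alone, averaged parental pools, the pools without BXD79, BXD85 and BXD101, and each line left out in turn.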

Additional observations from a re-analysis of the deposited data

Results flagged for a closer look

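The SD response differed between cortex and liver for 38 of the 69 matrix genes listed in both (55.1%, against 57.6% of all genes), tested by limma on the change in liver minus that in cortex within each line. *Lama4* (0.84), *Adamts14* (0.81) and *Col25a1* (-0.95) were called in opposite directions in the 2 tissues, 4.35% of the 69 where the share of all genes is 9.47%. Quantile normalization lost the cortex calls of *Adamts14* and *Col25a1*. *Adamts3* (0.96), *Col6a6* (0.75) and *Col14a1* (0.52) had the largest further differences with the liver above, and *Timp1* (-1.53), *Adamts17* (-1.02), *Mmp23* (-0.89) and *Col15a1* (-0.78) with the cortex above. Of these, *Timp1*, *Adamts17* and *Adamts3* averaged under 10 reads in liver.

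Among the parental genes named in liver, 4 single pools lay far from the other 3 of their strain, with a gap above Dixon's 95% critical value for 4 samples. *Adamts12* was listed at -1.24 log2 CPM in the second C57BL/6J SD pool, below the other C57BL/6J pools, and at 0.00 (-0.00358) in the second DBA/2J Ctr pool, where the other DBA/2J pools had no reads. *Lama2* stood at 1.99 in the second DBA/2J SD pool, below the others, and *Col4a5* at 3.04 in the second DBA/2J Ctr pool, above the others. The 6 genes named by parental difference in each tissue were searched in both strains. Chance flags about 1 in 20 groups of 4 values drawn from a single normal distribution. These groups mix Ctr and SD pools, and 3 of the DBA/2J values of *Adamts12* are those of no reads. The rate therefore does not apply to these flags as it stands.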

How the results depend on the processing

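Counts of called matrix genes kept within 1.5 times of those given under nearly every alternative: 13 to 17 higher and 45 to 60 lower in cortex, 13 to 18 lower in liver, 34 to 39 different between tissues, 57 to 60 and 47 to 51 different between lines in cortex and liver, and 29 to 35 different between parents in cortex. Exceptions were the liver genes that rose, 7 under quantile normalization against 4, and the liver genes that differed between parents, 8 without the variance trend against 14. The cause was not tested. No called change turned sign. Of the liver genes that did not pass, 2 to 10 turned sign under 7 alternatives, as did 15 when 1 line was left out and 2 such cortex genes under quantile normalization, which also took the median change of the liver genes from -0.02 to 0.01. Among these liver genes were *Mmp9* (0.0027 with voom and the block, 0.079 under quantile normalization), *Col1a2* (-0.0032 under quantile normalization, -0.013 in the 33 lines), *Timp2* (-0.0032 in all 43 pools) and *Lama2* (-0.028 in the 33 lines). Leaving out 1 line at a time gave *Col1a2* -0.0076 to 0.034, *Lama2* -0.013 to 0.070, *Timp2* -0.00095 to 0.025 and *Mmp9* -0.093 to 0.022.

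With the line as a replicate block, 17 rose and 60 fell in cortex and 6 rose and 18 fell in liver, and every call without the block was kept (66 and 18 shared). Without the pairing of tissues by line 34 genes differed between tissues, and with sampling time and condition as a block 34 and 13 differed between parents. Quantile normalization dropped 8 cortex calls, *Adamts9*, *Adamts14*, *Col4a6*, *Col15a1*, *Col25a1*, *Lamb3*, *Lamc3* and *Mmp19*. Calls were also lost for *Mmp16*, *Lamb3* and *Lamc3* in all 43 pools, for cortical *Col15a1* and *Lamc3* both in the 33 lines and without the 3 lines of fewer mice, and for liver *Mmp15* without those 3. With single lines left out the cortex counts ran from 13 to 15 higher and 49 to 52 lower, and the liver counts from 3 to 6 higher and 13 to 15 lower. Liver libraries held fewer reads, and 15 liver members under 10 reads on average allow little precision.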

Other observations

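The 4 BXD/TyJ lines (BXD05, BXD29, BXD29t and BXD32) were not part of the comparisons and give each member a change of its own. Their mean change had the sign of the 39 lines for 14 of 14 genes called higher and 49 of 52 called lower in cortex, and for 4 of 4 and 14 of 14 in liver. All 4 lines moved that way for 11 and 29 of these genes in cortex and for 2 and 8 in liver. BXD29 and BXD29t share a line number in their labels, so these may not be 4 unrelated genotypes.

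In cortex *Timp1* rose by 1.82 in BXD05, 1.25 in BXD29, 3.48 in BXD29t and 1.79 in BXD32, and *Mmp23* by 1.17, 1.57, 0.76 and 0.35. *Col4a2* rose by 0.34 to 0.75 and *Timp3* by 0.08 to 0.62 in the 4 lines. *Adamts3* ran from -0.85 to -0.46 and *Lama4* from -0.66 to -0.17. In liver *Adamts7* ran from -2.06 to -0.60, *Col15a1* from -2.21 to -0.61 and *Lama4* from 0.18 to 0.58, while *Adamts7* in cortex was split, with values of -1.15, 1.15, 0.06 and -0.66. Single pairs of pools carry no error, and these changes were not tested.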
